A study of Mus musculus with 6 samples.

Results

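Semaphorins, plexins, ephrins and Eph receptors are families of guidance proteins that steer axons, blood vessels and leukocytes. Their genes were taken as those in the count table whose symbols begin with Sema3 to Sema7, Plxna to Plxnd, Epha, Ephb, Efna or Efnb followed by a member number, and 3 antisense genes were left out. This gave 51 genes of 48440 in the table, and 45 of them had at least 10 counts in 3 or more samples and were tested, together with all 15115 genes that passed this filter. The 51 genes comprised 20 semaphorins, 9 plexins, 8 ephrins and 14 Eph receptors. The 6 members below the filter were Efna3, Epha5, Epha6, Epha7, Epha8 and Epha10, with total counts over all samples of 63, 34, 3, 20, 9 and 55. Efna3 came closest, with 10 or more counts in 2 samples, and Ephb1 passed with exactly 3.

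The libraries came from murine tissue entangled with engineered cartilage that had been grown from rabbit bone marrow mesenchymal stem cells (BEC) and carried under the skin of BALB/c nude mice for 12 weeks. In all 6 samples BEC lay inside an electrospun membrane of polycaprolactone (PCL) and collagen, which held no axitinib in the 0%-Axitinib group (n = 3) and 3% axitinib by weight in the 3%-Axitinib group (n = 3). Axitinib is an inhibitor of the VEGF receptor kinases, and the comparison asks how the tissue around the cartilage differs when the membrane carries it. The sample labels call the control tissue untreated, which was read as the 0%-Axitinib group. Nude mice lack a thymus and therefore most mature T cells, while B cells and myeloid cells are kept. A pair of constructs of the same group was placed in each mouse, the mouse of each sample is not named, and n therefore counts samples that may not all be separate animals. P-values then measure only the spread between these samples.

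Reads on genes numbered 17761968, 16716411 and 18005908 in 0%-Axitinib replicates 1, 2 and 3 and 9225518, 11686084 and 18403795 in 3%-Axitinib replicates 1, 2 and 3. Levels are given as CPM, counts relative to the reads on genes of the library after TMM normalisation, and 3 reads were worth 0.156 to 0.330 CPM. The share of unmapped reads was 5.47%, 3.84% and 14.9% in 0%-Axitinib replicates 1, 2 and 3 and 48.4%, 29.2% and 16.8% in 3%-Axitinib replicates 1, 2 and 3. The species of these reads was not tested, nor whether any reads counted on genes came from the rabbit cartilage. Some libraries stood apart from their group. 0%-Axitinib replicate 3 had a Spearman's rho of 0.89 with each of the other controls across genes, against 0.978 between those 2 controls. Skeletal muscle genes summed to 17850 and 9973 CPM in 3%-Axitinib replicates 1 and 3 but to 28.0 CPM in replicate 2. That replicate was the highest of the 6 in summed osteoblast and osteoclast genes, at 20770 CPM against 4975 and 7967 CPM in 3%-Axitinib replicates 1 and 3, and likewise in fibroblast genes (72830 against 25590 and 27950 CPM) and chondrocyte genes (1449 against 340 and 567 CPM). The labelled tissue, subcutaneous tissue, was matched by fibroblast transcripts in every sample, with at least 1082 CPM of Dcn and 70.1 CPM of Pdgfra. The fat cell gene Adipoq was between 0.455 and 22.4 CPM.

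Semaphorins are secreted or membrane-bound ligands, and most of them signal through plexins, which lack kinase activity and act on small GTPases and the cytoskeleton. Secreted class 3 semaphorins mostly bind a neuropilin coreceptor, whereas Sema3e binds Plxnd1 directly. Ephrins are ligands anchored in the membrane, and Eph receptors are receptor tyrosine kinases, so that signalling needs cell contact and can run in both directions. In the vasculature, Efnb2 marks arterial and Ephb4 venous endothelium, and semaphorin signals through Plxnd1 restrain and guide sprouting vessels.

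By p-value, the strongest differences were the lower levels of the ephrin Efnb2, the plexin Plxnc1 and the semaphorin Sema4d in the 3%-Axitinib group, which were 3.80, 3.14 and 3.08 times lower. The largest fold, 8.16 times lower, was that of Ephb1 on few reads, and this gene passed the filter only through the 0%-Axitinib samples. The study's criterion, a fold change of at least 1.5 with an unadjusted p of at most 0.05, was applied to edgeR's quasi-likelihood test. It was met by 9 lower members, Ephb1 among them, which is 20% of those tested, against 11.8% of all tested genes in this direction. The criterion was met by 2 higher members, Ephb2 and Sema6c, which is 4.44% against 9.54% of all tested genes. After Benjamini-Hochberg adjustment over all genes, edgeR's test gave 0 members an adjusted p of at most 0.05, and 1 gene in the whole table, 0.00662%. The unadjusted p was at most 0.05 for 11 members and for 3563 of all tested genes. DESeq2's Wald test called 8 members and 1971 genes after adjustment, and limma-voom called 0 members and 2 genes. The lowest adjusted p of a member in edgeR's test was 0.0957, and 3 members (762 of all genes) were at or below 0.1.

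Every 3%-Axitinib sample was below every control for 10 members, 22.2% against 16.7% of all tested genes, and above every control for 4 members, 8.89% against 14.6%. The log2 fold change was negative for 24 members and positive for 21, with a median of -0.08 against -0.03 over all tested genes. With each sample left out, the members' median ranged from -0.285 (without 3%-Axitinib replicate 2) to 0.245 (without 0%-Axitinib replicate 1). Over all tested genes it ranged from -0.0442 to 0.0202. Ephb1 passed the filter only through the 0%-Axitinib samples and so had to differ. Where at least 10 counts in every sample were required, 8 of 42 tested members were lower, beside 12% of all genes. Plxnd1 was the member just inside the criterion (unadjusted p = 0.0279), and Efna4 was just outside it (unadjusted p = 0.0515). Without 0%-Axitinib replicate 1, 5 of 44 tested members met the criterion in the higher direction, adding Sema3b, Ephb3 and Plxnb3, beside 9.65% of all genes in that fit. Without 0%-Axitinib replicate 2, Ephb2 was the only such member, beside 6.48% of all genes. Without 0%-Axitinib replicate 3, edgeR's test gave 4 members an adjusted p of at most 0.05, namely Plxna1, Efnb2, Plxnc1 and Sema4d, as part of 1520 such genes (10.4%). In bulk tissue, fewer cells of a type and less RNA per cell cannot be told apart, and this holds for every difference given here.

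**Figure D1:**
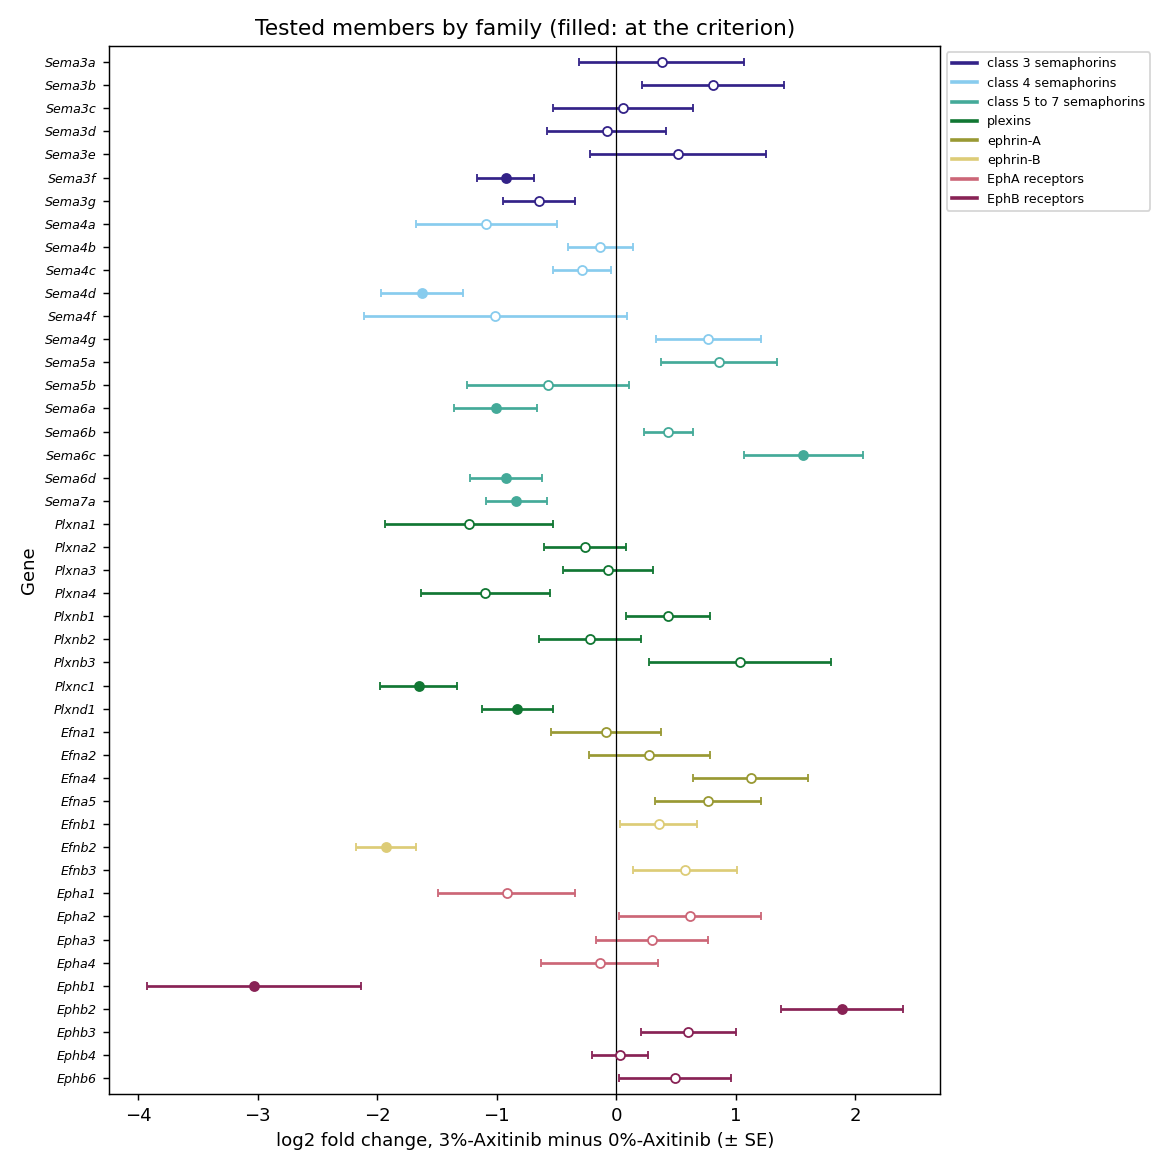
Log2 fold change of the 45 tested members (3%-Axitinib minus 0%-Axitinib, n = 3 each), coloured by family, with bars of 1 standard error from edgeR's quasi-likelihood fit and filled points for members at the criterion. Values run from -3.03 for Ephb1 to 1.89 for Ephb2, and the 9 filled points on the left include 4 of the class 5 to 7 and class 3 semaphorins and both called plexins.

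Levels between genes were compared as CPM per kilobase of exon, averaged over the 6 samples of both groups. Plexins led this pooled order, with Plxnb2 at 51.3, Plxnd1 at 27.7 and Plxna1 at 25.9 CPM per kilobase, followed by Sema4d at 20.7 and Sema7a at 20.0. The single samples spread widely around these means, from 24.5 to 78.0 CPM per kilobase for Plxnb2, from 14.0 to 42.0 for Plxnd1 and from 7.54 to 64.3 for Plxna1, so that neighbours in the order were not apart beyond their spread. In the 3%-Axitinib group alone, Sema3b came after Plxnb2 at 22.3 CPM per kilobase, above Plxnd1 at 19.9 and Plxna1 at 15.5, and Sema4d was at 10.1. Ephrins and Eph receptors were lower, the highest being Efna1 at 9.67, Ephb4 at 9.11 and Efnb1 at 8.31 CPM per kilobase. At the other end of the pooled order stood Sema5b at 0.171 and Sema3a at 0.255 CPM per kilobase. In the 3%-Axitinib group alone Ephb1 was the lowest tested member, at 0.0643 against 0.1355 for Sema5b and 0.290 for Sema3a.

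Among the secreted class 3 semaphorins, only Sema3f met the criterion, beside 11.8% lower and 9.54% higher of all tested genes. Sema3f (chromosome 9 of GRCm38, 107681500 to 107710475, minus strand) encodes a ligand of Nrp2 that repels axons and endothelial cells. Its level was 45.1, 33.4 and 42.4 CPM in 0%-Axitinib replicates 1, 2 and 3 and 25.8, 16.4 and 21.5 CPM in 3%-Axitinib replicates 1, 2 and 3. Every 3%-Axitinib sample was below every 0%-Axitinib sample, a log2 fold change of -0.92 (standard error, SE, 0.24, adjusted p = 0.106 in edgeR's quasi-likelihood test). Sema3g (chromosome 14, 31217860 to 31230352, plus strand), which is made by endothelial cells, was at 45.9, 20.8 and 31.4 CPM in the controls and at 21.3, 21.7 and 19.7 CPM with axitinib. These groups overlapped because 0%-Axitinib replicate 2 lay within the range of the 3%-Axitinib samples, and the log2 fold change of -0.65 (SE 0.30, adjusted p = 0.243) missed the criterion. It was -0.33 without 0%-Axitinib replicate 1 and met the criterion, at -0.90, without replicate 2. With all samples it met the criterion where total counts were the scale, at -0.79.

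Sema3b (chromosome 9, 107597674 to 107609229, minus strand), a secreted ligand also known as a tumour suppressor, had the highest level per length of its class. It was measured at 126, 30.1 and 26.0 CPM in the 0%-Axitinib samples and at 106, 103 and 111 CPM in the 3%-Axitinib samples. The 3%-Axitinib samples were close to each other, and 0%-Axitinib replicate 1 lay above all of them. On the log2 scale the fold change was 0.81 (SE 0.59, adjusted p = 0.429 in edgeR's test) and 1.92 without that sample, where it met the criterion. Summed markers of Schwann cells and nerves were also highest among the controls in replicate 1, at 1805 CPM against 713 and 324 CPM, and were 2209, 2208 and 1916 CPM in the 3%-Axitinib samples. Their part in the result was not tested.

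The remaining class 3 genes did not separate the groups. Sema3e (chromosome 5, 14025276 to 14256689, plus strand), the ligand of Plxnd1, ranged from 4.66 to 18.9 CPM in the controls and from 3.73 to 24.1 CPM with axitinib, with a log2 fold change of 0.52 (SE 0.74) that was 1.18 without 0%-Axitinib replicate 1. Sema3a (chromosome 5, 13125414 to 13602565, plus strand), the Nrp1 ligand that collapses growth cones, was low, between 0.981 and 7.36 CPM in all samples, with 0.38 (SE 0.69) on the log2 scale and -0.39 without 3%-Axitinib replicate 1. Sema3c (chromosome 5, 17574281 to 17730268, plus strand), which guides cells of the cardiac outflow tract, had a log2 fold change of 0.059 (SE 0.58). Its sign changed with total counts as the scale. In 3%-Axitinib replicate 2, which held little muscle RNA, Sema3e was at 3.73 CPM and Sema3c at 12.8 CPM, whereas replicates 1 and 3 held 24.1 and 19.0 CPM of Sema3e and 49.7 and 46.8 CPM of Sema3c. Sema3d, the last of the class, had a log2 fold change of -0.080.

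Of the 6 membrane-bound class 4 semaphorins, Sema4d met the criterion, beside 11.8% lower and 9.54% higher of all tested genes. Sema4d (chromosome 13, 51685529 to 51793747, minus strand) is carried by T cells and other leukocytes and binds Plxnb1 on endothelial cells and Cd72 on B cells. The samples held 201, 348 and 171 CPM in the 0%-Axitinib group and 59.5, 77.7 and 96.5 CPM in the 3%-Axitinib group. The lowest control was well above the highest 3%-Axitinib sample, and the log2 fold change was -1.62 (SE 0.34, adjusted p = 0.0957 in edgeR's quasi-likelihood test). With each sample left out in turn, it stayed between -1.82 and -1.26 and met the criterion each time. The class as a whole summed to 338, 452 and 420 CPM in the controls and to 169, 149 and 228 CPM with axitinib, and Sema4d made up between 35.3% and 77.0% of it in the single samples. Without Sema4d the sum was 137, 104 and 249 CPM against 109, 71.7 and 132 CPM, and the groups overlapped.

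Sema4a, a semaphorin of dendritic and B cells singled out after its values were seen, was 178 CPM in 0%-Axitinib replicate 3 and between 21.7 and 67.5 CPM in all other samples. Its log2 fold change was -1.09 (SE 0.59, adjusted p = 0.301), it was -0.32 without that control, and it met the criterion, at -1.43, without 0%-Axitinib replicate 2. Sema4b, Sema4c and Sema4f had log2 fold changes of -0.13, -0.29 and -1.01, and Sema4g had the only positive value of the class, 0.77. The value of Sema4f became 0.74 when 0%-Axitinib replicate 3 was left out and -1.86 when 3%-Axitinib replicate 1 was. T and B cell markers moved in the same direction as Sema4d, with 10 of 11 tested genes lower at the criterion (11.8% of all tested genes) and a median log2 fold change of -4.26. They summed to 38.0, 128 and 497 CPM in the 0%-Axitinib samples and to 5.71, 8.10 and 5.02 CPM in the 3%-Axitinib samples. The order within the controls differed from that of Sema4d, because replicate 3, with the highest marker sum, had the lowest Sema4d, 171 CPM. Jchain was the most abundant, and neither defining marker (Cd3e and Cd79a) was at 0 in all samples. Their part in the lower Sema4d was not tested.

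Classes 5 to 7 are anchored in the membrane, and of their 7 genes 3 were lower and 1 was higher at the criterion. Of all tested genes, 11.8% were lower and 9.54% higher. Sema7a (chromosome 9, 57940112 to 57962865, plus strand), a lipid-anchored ligand of Plxnc1 and of integrin beta-1, was at 94.6, 60.9 and 98.5 CPM in the controls and at 51.5, 53.5 and 37.4 CPM with axitinib. The groups did not overlap, although 0%-Axitinib replicate 2 was near the 3%-Axitinib samples. At a log2 fold change of -0.84 (SE 0.25, adjusted p = 0.131 in edgeR's test) it met the criterion, and without 3%-Axitinib replicate 3, at -0.69, it did not. Sema6d (chromosome 2, 124089969 to 124667770, plus strand), a ligand of Plxna1, was at 26.0, 20.4 and 29.9 CPM in the controls and at 13.5, 17.6 and 9.18 CPM with axitinib. All 3 controls were higher than all 3 treated samples, with a log2 fold change of -0.92 (SE 0.30, adjusted p = 0.142) that met the criterion with any sample left out.

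Sema6a (chromosome 18, 47235598 to 47368870, minus strand), a ligand of Plxna2 and Plxna4, was at 14.0, 8.01 and 8.83 CPM in the 0%-Axitinib samples and at 4.18, 4.73 and 6.41 CPM in the 3%-Axitinib samples. The gap between the groups was narrow. Its log2 fold change of -1.01 (SE 0.35, adjusted p = 0.154 in edgeR's test) missed the criterion when 0%-Axitinib replicate 1 (-0.72), 3%-Axitinib replicate 1 (-0.88) or 3%-Axitinib replicate 2 (-0.95) was left out. Sema6c (chromosome 3, 95160457 to 95174024, plus strand), a further transmembrane semaphorin, went the other way. It was measured at 25.6, 10.6 and 7.58 CPM in the controls and at 45.4, 27.7 and 56.4 CPM with axitinib. The groups were separate, but only a small step lay between the highest control, replicate 1, and 3%-Axitinib replicate 2. With total counts as the scale these samples changed places and the groups overlapped.

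For Sema6c the log2 fold change was 1.57 (SE 0.50, adjusted p = 0.138 in edgeR's quasi-likelihood test), and it missed the criterion without 0%-Axitinib replicate 2 (1.37) or without 3%-Axitinib replicate 3 (1.31). Without 0%-Axitinib replicate 1 it was 2.24. Skeletal muscle markers summed to 193, 24.0 and 27.5 CPM in the 0%-Axitinib samples and to 17850, 28.0 and 9973 CPM in the 3%-Axitinib samples, so that the 3%-Axitinib sample with the least muscle RNA also had the least Sema6c. Of 19 tested muscle genes 17 were higher at the criterion, beside 9.54% of all tested genes, and Acta1 was the most abundant. Ckm had no reads in 0%-Axitinib replicate 3 and 3%-Axitinib replicate 2. The part of muscle tissue in the higher Sema6c was not tested. Sema6b was higher in every 3%-Axitinib sample, at 49.7, 48.6 and 41.2 CPM against 40.5, 34.7 and 27.7 CPM, but its fold of 1.35 was below the criterion, and it was named after its values were seen. With total counts as the scale its groups overlapped. Sema5a and Sema5b had log2 fold changes of 0.86 and -0.57 and overlapped, and Sema5b was at -1.23 without 3%-Axitinib replicate 3. Sema5b was at -0.13 without 0%-Axitinib replicate 1 and -0.15 without 3%-Axitinib replicate 2, and Sema5a was at 0.50 without 0%-Axitinib replicate 2. Summed over all 20 semaphorins, the controls were at 776 ± 77.0 CPM and the treated samples at 568 ± 60.7 CPM (mean ± SD, n = 3 each, p = 0.1 by exact two-sided permutation, the lowest possible here). Without Sema4d these sums were 664, 378 and 567 CPM against 533, 421 and 516 CPM and overlapped.

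**Figure D2:**
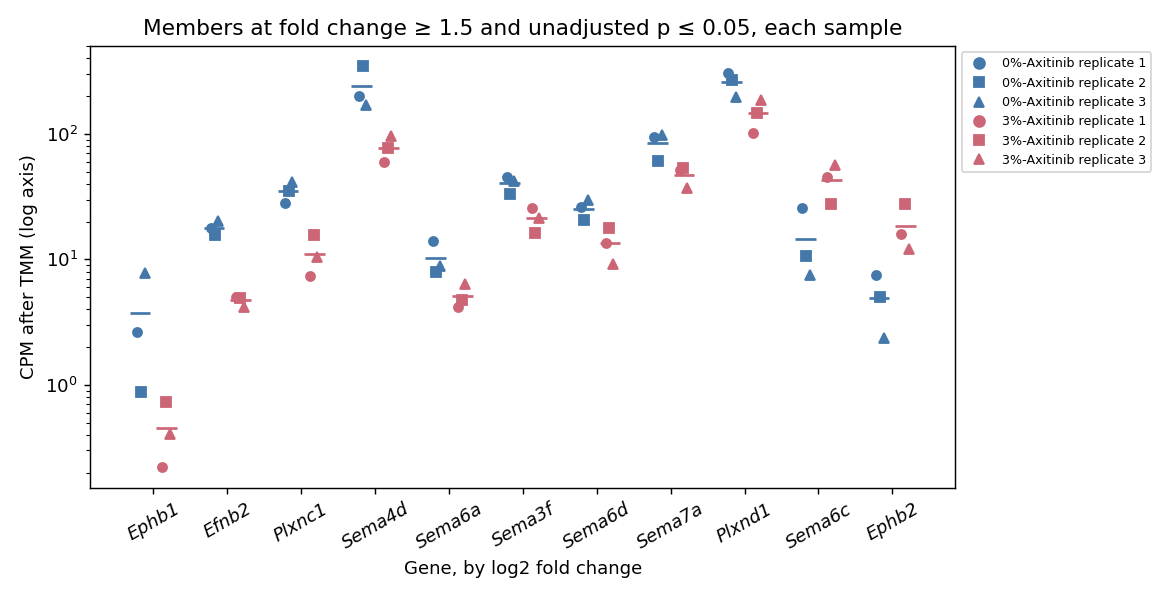
CPM after TMM (log axis) of the 11 members at the criterion in each sample, ordered by log2 fold change, with a horizontal line at each group's mean. For Efnb2 the 3%-Axitinib samples lie between 4.21 and 5.05 CPM and the controls between 15.7 and 20.3 CPM, while Plxnd1 and Sema7a show narrow gaps between the groups.

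Among the 9 plexin receptors, Plxnc1 and Plxnd1 were lower at the criterion and none was higher, beside 11.8% and 9.54% of all tested genes. Plxnc1 (chromosome 10, 94790866 to 94944835, minus strand) is the receptor of Sema7a and is found on leukocytes. The controls held 28.4, 35.1 and 41.5 CPM of it and 3%-Axitinib replicates 1, 2 and 3 held 7.36, 15.6 and 10.4 CPM. All controls were far above all 3%-Axitinib samples, and the log2 fold change was -1.65 (SE 0.32, adjusted p = 0.0957 in edgeR's quasi-likelihood test). It ranged from -1.97 to -1.42 with each sample left out and met the criterion each time. The exons of Plxnc1 overlap Gm48718 on the same strand, so some reads may belong to either gene. Thus the receptor Plxnc1 and its ligand Sema7a were both lower in the same samples.

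Plxnd1 (chromosome 6, 115954811 to 115995005, minus strand), the endothelial receptor of Sema3e, was at 307, 269 and 198 CPM in the controls and at 102, 148 and 187 CPM with axitinib. 0%-Axitinib replicate 3 and 3%-Axitinib replicate 3 nearly met. Plxnd1 had a log2 fold change of -0.83 (SE 0.30, adjusted p = 0.165 in edgeR's test). It missed the criterion in 4 of the 6 fits with a sample left out, at -0.69 and -0.80 without 0%-Axitinib replicates 1 and 2 and at -0.63 and -0.84 without 3%-Axitinib replicates 1 and 2. The level of its ligand Sema3e overlapped between the groups, as given above.

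Plxnb2 (chromosome 15, 89155549 to 89180788, minus strand), a receptor of class 4 semaphorins, was the most abundant member per length. Its level was 486, 602 and 189 CPM in the controls and 327, 345 and 427 CPM in the 3%-Axitinib samples, and the controls lay on either side of the treated samples. The log2 fold change was -0.22 (SE 0.43) and turned to 0.11 without 0%-Axitinib replicate 2. Plxna1, which acts with neuropilins and is known in dendritic cells, was named after its values were seen. It was at 334, 582 and 68.3 CPM in the controls and at 124, 94.5 and 201 CPM with axitinib, so that the lowest value of all was in a control. Its log2 fold change was -1.23 (SE 0.70, adjusted p = 0.323 in edgeR's test) with all samples and -1.71 (adjusted p = 0.0468) without 0%-Axitinib replicate 3, and it was -0.53 without replicate 2. The exons of Plxna1 overlap Gm26811 on the other strand. Overlaps were also found for Plxnb1, Sema4a and Sema4c (Gm7628, Mir7011 and D430040D24Rik).

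The dendritic cell list held 8 tested genes, of which 6 were lower at the criterion (11.8% of all tested genes), and Itgax was its most abundant gene. Itgax was at 1387, 2242 and 315 CPM in the 0%-Axitinib samples and at 404, 301 and 813 CPM in the 3%-Axitinib samples. Itgax itself missed the criterion (log2 fold change -1.38) and made up 87.3% of the summed list, so the sum is not given. The defining gene Flt3 ran the other way among the controls, at 1.98, 2.90 and 7.80 CPM, and was at 0.659, 0.728 and 0.519 CPM with axitinib. Zbtb46, the other defining gene, had a log2 fold change of -1.16. The list's part in the level of Plxna1 was not tested.

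Plxna4, a receptor of Sema3a and of class 6 semaphorins also named after its values were seen, was lower in every 3%-Axitinib sample, at 5.05, 12.5 and 2.66 CPM against 14.0, 13.3 and 15.6 CPM. Its log2 fold change of -1.10 (SE 0.54, adjusted p = 0.264) missed the criterion and was -1.90, meeting it, without 3%-Axitinib replicate 2. It also met it with all samples in limma-voom and with no filter. Without 3%-Axitinib replicate 3 it was -0.71 and missed it. Exons of Plxna4 overlap the antisense gene Plxna4os3, which had 2 reads over all samples, and the strand setting of the counts is not given in the sources used here. Of the other antisense genes, for which no exon overlap with Plxna4 was found, Plxna4os2 had 2 reads and Plxna4os1 held 34, 27 and 35 reads in the controls and 9, 14 and 7 reads in the 3%-Axitinib samples. Plxna2, Plxna3, Plxnb1 and Plxnb3 had log2 fold changes of -0.26, -0.067, 0.44 and 1.03 and overlapped between the groups. Plxnb3, like Sema3b, was higher in 0%-Axitinib replicate 1 (9.36 CPM) than in the other controls (3.77 and 0.758 CPM), and its log2 fold change was 2.06 without that sample, where it met the criterion. Without 0%-Axitinib replicate 3 its log2 fold change was 0.53.

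Of the 7 tested ephrins, Efnb2 alone met the criterion, beside 11.8% lower and 9.54% higher of all tested genes. Efnb2 (chromosome 8, 8617434 to 8661242, minus strand), the transmembrane ligand of arterial endothelium, was at 17.9, 15.7 and 20.3 CPM in the controls and at 5.05, 4.91 and 4.21 CPM with axitinib. Each group was tight and the groups were far apart, with a log2 fold change of -1.93 (SE 0.25, adjusted p = 0.0957 in edgeR's quasi-likelihood test). Leaving out any sample kept it between -2.02 and -1.84, and this was the lowest p of any member. Efnb1 (chromosome X, 99136130 to 99148991, plus strand), a ligand that acts in skeletal and craniofacial patterning, was at 28.1, 19.0 and 28.4 CPM in the controls and at 23.4, 47.1 and 26.1 CPM with axitinib. Only 3%-Axitinib replicate 2 was above the controls, and the log2 fold change of 0.36 (SE 0.33) was -0.02 without it. Efnb3 was low, between 1.22 and 3.00 CPM, with a log2 fold change of 0.58.

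Efna1 (chromosome 3, 89271733 to 89281142, minus strand), a lipid-anchored ephrin induced by inflammatory cytokines in endothelium, was at 13.8, 10.2 and 30.7 CPM in the controls and at 11.9, 22.9 and 16.7 CPM with axitinib. The groups overlapped fully, and the log2 fold change was -0.087 (SE 0.46), or 0.51 without 0%-Axitinib replicate 3. Efna4, singled out after its values were seen, was higher in every 3%-Axitinib sample, at 3.96, 5.37 and 4.73 CPM against 2.29, 0.987 and 3.14 CPM, with a log2 fold change of 1.13 (SE 0.48, adjusted p = 0.215 in edgeR's test) and 1.5 without 0%-Axitinib replicate 3, where it met the criterion. It also met it with all samples in DESeq2's Wald test, in limma-voom and where at least 10 counts in every sample were required. Its exons overlap 4731419I09Rik on the other strand. Efna2 and Efna5 had log2 fold changes of 0.28 and 0.77, and Efna3 was not tested. Efna2 was at -0.33 without 3%-Axitinib replicate 2. Efna5 met the criterion, at 1.05, without 3%-Axitinib replicate 3 and was 0.43 without 3%-Axitinib replicate 2. The 7 tested ephrins summed to 71.4 ± 17.8 CPM in the controls and 70.5 ± 22.6 CPM with axitinib (mean ± SD, n = 3 each), so the lower Efnb2 was not seen in the sum.

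Eph receptors included the member with the largest rise. Ephb2 (chromosome 4, 136647539 to 136835988, minus strand), a receptor kinase for B-class ephrins, was at 7.54, 4.99 and 2.38 CPM in 0%-Axitinib replicates 1, 2 and 3 and at 15.8, 27.6 and 12.0 CPM in 3%-Axitinib replicates 1, 2 and 3. The groups were separate, with the highest value in 3%-Axitinib replicate 2, which was also highest in bone, fibroblast and cartilage genes and held little muscle RNA. Their part in the higher Ephb2 was not tested. The log2 fold change was 1.89 (SE 0.51, adjusted p = 0.110 in edgeR's test), it lay between 1.48 and 2.31 with any sample left out, and the criterion was met each time. Ephb1 (chromosome 9, 101922128 to 102354693, minus strand), another receptor of B-class ephrins, was at 2.65, 0.871 and 7.74 CPM in the controls and at 0.220, 0.728 and 0.404 CPM with axitinib. These values rest on 51, 15 and 143 reads in the controls and 2, 8 and 7 reads in the 3%-Axitinib samples. The log2 fold change of -3.03 (SE 0.90, adjusted p = 0.126) therefore has little depth behind it, and in limma-voom it was -2.56 and missed the criterion. Only the controls carried Ephb1 past the filter, so its lower call was favoured in advance. Ephb1 overlaps Gm26846 on the other strand.

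Ephb4 (chromosome 5, 137350109 to 137378669, plus strand), the venous receptor of Efnb2, was at 54.4, 32.7 and 38.3 CPM in the controls and at 37.8, 45.4 and 45.1 CPM with axitinib. The groups overlapped, with a log2 fold change of 0.033 (SE 0.23, adjusted p = 0.944 in edgeR's test), whose sign changed with total counts as the scale. The ratio of Efnb2 to Ephb4, which restates these values and was chosen after they were seen, was 0.330, 0.479 and 0.528 in the controls and 0.134, 0.108 and 0.0935 with axitinib. The exons of Ephb4 overlap Zan on the other strand.

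Ephb3 and Ephb6, of which the latter lacks kinase activity, had log2 fold changes of 0.60 and 0.49 and overlapped between the groups, and Ephb3 met the criterion, at 1.03, without 0%-Axitinib replicate 1. Epha2 (chromosome 4, 141301240 to 141329384, plus strand), the main receptor of Efna1 on endothelium and epithelium, was at 12.4, 8.42 and 12.8 CPM in the controls and at 7.03, 34.6 and 10.2 CPM with axitinib. The log2 fold change of 0.62 (SE 0.59) rested on 3%-Axitinib replicate 2 and was -0.38 without it. Epha1, Epha3 and Epha4 were at most 4.01, 20.1 and 8.58 CPM, with log2 fold changes of -0.92, 0.30 and -0.14. Epha1, whose exons overlap Zyx on the other strand, met the criterion, at -1.29, without 0%-Axitinib replicate 3 and was -0.36 without 0%-Axitinib replicate 2. Epha3 was at -0.29 without 3%-Axitinib replicate 2, and Epha4 ranged from -0.60 to 0.26 with each sample left out. The other 5 EphA genes were below the filter.

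Most endothelial markers were lower in the 3%-Axitinib group in the same samples as Efnb2 and Plxnd1. Of 20 tested genes 16 were lower at the criterion and 0 higher, beside 11.8% and 9.54% of all tested genes, and the median log2 fold change was -1.30. Their sum was 1538, 1036 and 1518 CPM in the controls and 579, 675 and 826 CPM with axitinib, and 19 of the 20 log2 fold changes were negative. Eng, the most abundant over all samples, had a log2 fold change of -0.0034, and Ramp2 had a positive value, 0.80. The defining genes Pecam1 and Cdh5 had log2 fold changes of -1.61 and -2.36 and were detected in every sample. On the same scale Efnb2 lay between these markers at -1.93, Plxnd1 was at -0.83 and Ephb4 at 0.033. The part of endothelial content in these values was not tested.

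**Figure D3:**
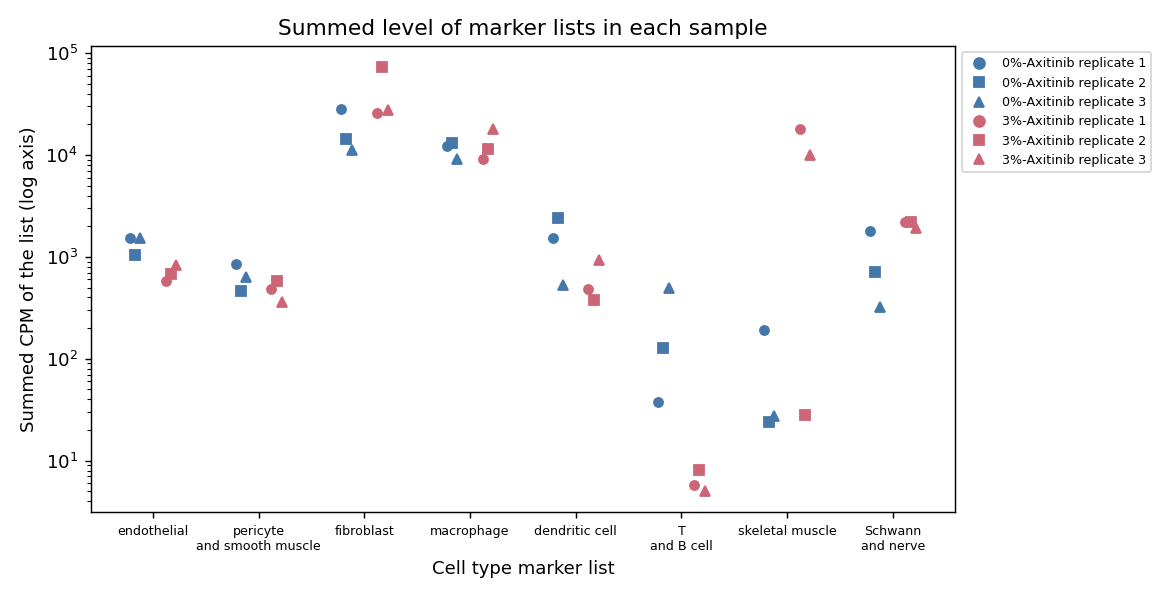
Summed CPM (log axis) of 8 cell type marker lists in each of the 6 samples. Endothelial sums are 1036 to 1538 CPM in the controls and 579 to 826 CPM in the 3%-Axitinib group, T and B cell sums are lower in every 3%-Axitinib sample, and skeletal muscle sums are high only in 3%-Axitinib replicates 1 and 3.

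Arterial and venous genes were listed separately, and 5 of 14 were lower at the criterion and 0 higher (median log2 fold change -0.62), beside 11.8% and 9.54% of all tested genes. Among them, the arterial connexin gene Gja5 and the Notch ligand gene Dll4 had log2 fold changes of -1.98 and -2.27, Aplnr had -2.45, Flt4 had -1.82 and Sox17 had -1.53. Other genes of the list overlapped between the groups, among them the arterial genes Gja4, Hey1, Hey2 and Unc5b (-0.51, 0.24, 0.17 and -0.070) and the venous genes Nr2f2 and Ackr1 (-0.13 and 0.67). Vwf and Selp (-0.64 and -0.59) overlapped as well. Of the 14 log2 fold changes 11 were negative, and the lowest, -3.29, was that of a gene that missed the criterion.

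Coreceptors and signalling genes of the semaphorins gave 4 lower and 3 higher genes of 34 tested, with a median log2 fold change of -0.0018. The neuropilins Nrp1 and Nrp2, which bind class 3 semaphorins and VEGF, had log2 fold changes of -0.45 and -0.50 (adjusted p = 0.371 and 0.333 in edgeR's test) and overlapped between the groups. At the criterion were Itga1, Met, Cd72 and Rap1b, with log2 fold changes of -1.40, -1.33, -0.91 and -0.87, and Erbb2, Mical3 and Farp1, with 1.06, 0.91 and 0.82. In the ephrin and Eph signalling list, 11 of 33 tested genes were lower and 2 higher, beside the same 11.8% and 9.54% of all tested genes, with a median of -0.38. Ngef, an exchange factor that acts downstream of EphA receptors, was at 7.18, 3.60 and 4.12 CPM in the controls and at 16.5, 27.5 and 21.9 CPM with axitinib, a log2 fold change of 2.14 (SE 0.36, adjusted p = 0.0957). Vav3 and Itsn2, further exchange factors, had -1.14 and -1.10, and the adaptor genes Nck1 and Nck2 had -0.70 and -0.65. The others at the criterion were Rasa1, Crkl, Arhgef15, Sdcbp, Yes1, Adam10 and Crk, with -1.11, -1.05, -0.94, -0.80, -0.75, -0.62 and -0.61, and Ptpn13, with 1.16. Rgs3, which binds B-class ephrins, had 0.57 and overlapped. Of 16 tested genes of the slit, netrin and repulsive guidance families 1 was lower, the endothelial receptor Robo4 (-1.76), and 2 were higher, Neo1 (1.04) and Rgma (1.19), while Slit2 and Robo1 had -0.11 and 0.10. These few calls stand beside the same 11.8% lower and 9.54% higher of all tested genes.

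The counts of the further cell type lists stand beside 11.8% lower and 9.54% higher of all tested genes at the criterion. Pericyte and smooth muscle genes gave 5 lower of 11, with Rgs5, the most abundant over all samples, at -2.21 and Myh11 at 1.02 on the log2 scale. Fibroblast genes gave 4 higher of 14, led in level by Col1a1, and Pdgfra and Dcn had log2 fold changes of 0.27 and 0.72. Macrophage genes gave 0 lower and 0 higher of 12, with Lyz2 the most abundant and Adgre1 and Csf1r at -0.95 and -0.19. Chondrocyte genes gave 5 higher of 9, with Comp the most abundant over all samples and Col2a1 and Acan at 2.53 and 3.92. Osteoblast and osteoclast genes gave 2 higher of 14, with Ctsk the most abundant and Ibsp and Acp5 at 4.17 and -0.49. Ibsp was at 1045, 10520 and 1801 CPM in 3%-Axitinib replicates 1, 2 and 3. Schwann and nerve genes gave 4 higher of 12, with Pmp22 the most abundant and Sox10 at 1.88. Adipocyte genes gave 3 lower of 10, with Fabp4 the most abundant and Adipoq and Plin1 at -1.66 and -1.12. Keratinocyte genes gave 1 lower of 4, Krt10, and summed to 324 CPM in 0%-Axitinib replicate 2 against 11.5 to 17.8 CPM elsewhere. Of the genes named in this paragraph, Rgs5, Col1a1, Col2a1, Acan, Ibsp, Fabp4 and Krt10 met the criterion and the others, among them Adipoq, Plin1 and Sox10, did not. No member can be assigned to a cell type from these libraries, and the part of the lists in the members' values was not tested.

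Promoter windows were taken from RefSeq (GRCm38.p6), from 250 bases before to 50 bases after a gene's start. The table held 39 of the 45 tested members with 51 windows, and 9 of the 11 members at the criterion. Each of 8 motifs was searched on both strands. GGAAG, the core of ETS sites, was in 80.4% of the members' windows and 71.4% of all 32851 windows, and the longer forms CGGAAG and CCGGAAG, which contain it, were in 9.80% against 16.9% and 3.92% against 8.86%. The hypoxia response core was in 41.2% against 32.4% as GCGTG and in 21.6% against 19.6% as ACGTG. The RBPJ site GTGGGAA was in 1.96% against 6.38%, the GATA site GATAAG in 1.96% against 7.44%, and the E-box CACGTG, which contains ACGTG, in 5.88% against 7.15%. These shares are descriptions of letters in the windows, and no site or factor follows from them.

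The windows of the 2 plexins called lower, of the ephrin with the lowest p and of the Eph receptor called higher are printed here for comparison, with GCGTG on either strand in capitals. They lie on the minus strand at chr10:94944796-94945095 (Plxnc1), chr6:115994956-115995255 (Plxnd1), chr8:8661193-8661492 (Efnb2) and chr4:136835963-136836262 (Ephb2). The motif occurred 1, 5, 0 and 2 times in them.
Plxnc1: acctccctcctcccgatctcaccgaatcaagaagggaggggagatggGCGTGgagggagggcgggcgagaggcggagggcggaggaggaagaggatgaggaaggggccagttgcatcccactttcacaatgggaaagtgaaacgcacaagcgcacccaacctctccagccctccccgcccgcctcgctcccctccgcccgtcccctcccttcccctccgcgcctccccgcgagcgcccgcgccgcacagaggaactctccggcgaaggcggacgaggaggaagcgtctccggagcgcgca
Plxnd1: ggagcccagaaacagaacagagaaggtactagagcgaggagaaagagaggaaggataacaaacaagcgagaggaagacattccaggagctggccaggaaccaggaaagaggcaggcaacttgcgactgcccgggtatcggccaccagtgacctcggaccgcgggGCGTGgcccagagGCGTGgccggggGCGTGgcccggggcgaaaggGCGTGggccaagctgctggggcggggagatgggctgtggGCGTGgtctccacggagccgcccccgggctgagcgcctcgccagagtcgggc
Efnb2: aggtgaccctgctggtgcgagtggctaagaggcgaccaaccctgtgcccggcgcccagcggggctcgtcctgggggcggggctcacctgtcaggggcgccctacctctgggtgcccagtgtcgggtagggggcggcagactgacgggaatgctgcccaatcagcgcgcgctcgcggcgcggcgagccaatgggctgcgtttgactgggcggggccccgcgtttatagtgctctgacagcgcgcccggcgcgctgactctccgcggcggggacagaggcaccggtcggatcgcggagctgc
Ephb2: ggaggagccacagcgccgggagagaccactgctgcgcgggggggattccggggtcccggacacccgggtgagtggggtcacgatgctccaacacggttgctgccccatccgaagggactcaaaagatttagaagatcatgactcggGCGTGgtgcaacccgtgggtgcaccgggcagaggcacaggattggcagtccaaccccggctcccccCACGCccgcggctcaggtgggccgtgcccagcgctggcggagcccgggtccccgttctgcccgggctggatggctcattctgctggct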

How the data were processed

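RNA of 6 samples had been sequenced. The authors deposited a table of raw read counts for genes. Reads were filtered with fastp per the study's methods and aligned with STAR 2.5.2b to GRCm38 (mm10) per the submitters' processing notes. The annotation release and the strand setting are not given in the sources used here. The 4 lines of reads given to no gene (unmapped, between 3.84% and 48.4%, multimapping, between 2.71% and 6.65%, outside genes, between 3.17% and 6.14%, and ambiguous, between 3.55% and 5.74%) entered neither library sizes nor tests. Replicates were compared by a chi-square per gene, which was between 45.2 and 334 within groups where sampling alone gives about 1, so no library appears again within its group. A count of 3 was taken as the detection floor, which covers counting error only.

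Genes with at least 10 counts in 3 or more samples were normalised by TMM and tested with edgeR 4.0.16 in R 4.3.3 (quasi-likelihood test, Benjamini-Hochberg adjustment over 15115 genes). Single sums were compared by exact two-sided permutation. Positions and exon lengths came from GENCODE M21. The scripts were tested on simulated data. Alternatives were total counts, size factors of DESeq2, TMM after removal of muscle genes, no filter, filterByExpr, at least 10 counts in every sample, DESeq2 1.42.0, limma-voom (limma 3.58.1), the replicate number as a block, other thresholds and each sample left out. Named members were those at the criterion, the highest per length in each family and 12 with known vascular roles, and others were named after their values were seen. From each list the defining genes, the most abundant gene over all 6 samples (cell types) and genes at the criterion, with some others of a list named after their values were seen (pathways), were named, and 1 of these genes is not reported here. The members and lists were chosen with earlier results of these data known. Plots used matplotlib 3.10.9 and Python 3.11.15.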

Additional observations from a re-analysis of the deposited data

How the results depend on the processing

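The counts of members at the criterion stayed within 1.5 times of 9 lower and 2 higher under the other normalisations, filters and tests. Of all genes, between 9.44% and 16.2% were lower and between 6% and 10.7% higher in those fits. At a fold change of at least 2 they were 5 lower and 2 higher, and the share of all genes at this fold was not tabulated. With each sample left out the members lay between 6 and 10 lower and between 1 and 5 higher. The shares of all genes in these fits lay between 8.3% and 13.6% lower and between 6.48% and 14.4% higher. Calls after adjustment moved from 0 to 8 with DESeq2's Wald test, to 3 where an adjusted p up to 0.1 was allowed, and ranged from 0 to 4 with each sample left out. DESeq2's test called 13.2% of all genes, and the fits with a sample left out called between 0% and 10.4%. Up to an adjusted p of 0.1, edgeR's test called 762 of all 15115 tested genes. Members separated in the higher direction numbered 2, not 4, with total counts, where Sema6c and Sema6b overlapped, a scale that moved the median of all genes by -0.13. The share of all genes separated on that scale was not tabulated. The cause of these shifts was not tested.

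No member at the criterion turned its sign. With samples left out, signs turned for Sema3d, Sema4b, Sema4f, Plxna3, Efna2, Epha3 and Epha4, for which the other alternatives were not tabulated, and for the members given here with values. With total counts the log2 fold change was -0.11 for Ephb4 and -0.079 for Sema3c. With limma-voom it was -0.16 for Sema3a, 0.035 for Efna1 and -0.0062 for Sema3c. With each sample left out, it ranged from -0.02 to 0.54 for Efnb1, from -0.38 to 0.99 for Epha2, from -0.39 to 0.86 for Sema3a, from -0.58 to 0.11 for Plxnb2, from -0.38 to 0.51 for Efna1, from -0.13 to 0.26 for Ephb4 and from -0.24 to 0.63 for Sema3c. Ephb1 was not tested in 3 of these fits, because it fell below the filter.

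Replicate numbers were shared by the groups, and same-numbered samples had correlations of 0.185, -0.114 and -0.177 in their deviations from the group means. Samples of unlike number had correlations from -0.224 to 0.214. With 3 samples in each group these values cannot settle whether the numbers pair the samples. With the replicate block, 8 members were lower, without Plxnd1 (-0.85) and Sema6a (-0.98) and with Sema4a, 2 were higher, 0 were called after adjustment, and the log2 fold change was 0.0096 for Efna1 and -0.021 for Sema3c. Of all genes in that fit, 8.97% were lower and 8.2% higher at the criterion.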
